A study of Mus musculus with 6 samples.

Results

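The miR-181 family was measured here with 4 assays, miR-181a, miR-181b, miR-181c and miR-181d, out of 345 miRNA assays in the authors' table of normalized values. The members are all mouse-named assays for the main strand of a miR-181 hairpin, and they were chosen by name, not by their values. All 4 gave a threshold cycle (Ct) below 35 in all 6 samples, so all 4 were among the 274 assays that could be tested. No other assay of the panel, star-strand or human-named, carries the name miR-181 or miR-213, a former name of a miR-181a star strand. The samples are mouse CD8+ T cells of the pMel-1 line, whose transgenic T cell receptor recognises the melanoma antigen gp100; that receptor is shared by both groups. In 3 samples the cells were primed in culture for 3 days by dendritic cells grown from bone marrow and matured with lipopolysaccharide (DC-primed). In the other 3 they were primed by B cells from spleen that carried the human gp100 peptide (B cell-primed, the control). The work was done in 3 rounds, and a sample of either kind is named by its round. The labels give no age, sex or strain for the mice and do not tie rounds to animals, so the p-values below measure only how these samples scatter. miR-150, abundant in resting lymphocytes and found in B and T cells alike, lay between 3.08 and 5.53 in all 6 samples on the log2 scale used below.

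miRNAs are short RNAs that guide Argonaute proteins to messenger RNAs, mainly through the seed, bases 2 to 8 of the mature strand. In T cells, miR-181a is best known from thymocytes, where it is abundant and sets the sensitivity of T cell receptor signalling by lowering phosphatases such as Ptpn22, Dusp5, Dusp6 and Shp2. Its level is known to be lower in mature T cells than in thymocytes. miR-181b is made from the same primary transcripts as miR-181a, and miR-181c and miR-181d come from neighbouring hairpins elsewhere. miR-181a is also found in B cells, so it marks neither lineage alone.

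The mature sequences show how close the 4 targets are, which matters because each assay relies on a forward primer matched to its miRNA. They are given 5′ to 3′ from RefSeq (build GRCm38.p6), with the seed in capitals:
miR-181a: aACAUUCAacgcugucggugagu
miR-181b: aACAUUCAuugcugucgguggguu
miR-181c: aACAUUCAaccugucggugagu
miR-181d: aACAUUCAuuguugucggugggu
All 4 share the seed ACAUUCA, and no mature miRNA outside this family had that seed among the 1738 mature entries of the RefSeq table. The members therefore differ only downstream of the seed. With positions counted from 1 at the 5′ end, miR-181b differs from miR-181a by A9U, C10U and A21G over 23 compared bases. miR-181d differs from miR-181b by C12U alone over 23 bases. miR-181c equals miR-181a in all its 22 bases apart from the absence of position 11 of miR-181a. With a single forward primer per miRNA, how far the assays tell these sequences apart was not tested in the files.

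The genes form 3 pairs. Mir181a-1 and Mir181b-1 lie on the plus strand of chromosome 1, with hairpins at chr1:137966455-137966541 and chr1:137966639-137966718. Mir181a-2 and Mir181b-2 lie on the plus strand of chromosome 2, at chr2:38852735-38852810 and chr2:38853830-38853918, within the spans of Nr6a1 and its antisense transcript Nr6a1os. Mir181c and Mir181d lie on the minus strand of chromosome 8, where the mature strands are at chr8:84178924-84178945 and chr8:84178759-84178781, outside other genes of the RefSeq table. Mature strands of a pair start 182, 1104 and 165 bases apart on chromosomes 1, 2 and 8. Both copies of miR-181a give the same mature strand, as do both copies of miR-181b, so an assay cannot tell the copies apart.

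Levels are given below as minus dCt, which is Ct less the authors' number for the sample, with the sign turned. On this log2 scale 1 unit is 1 PCR cycle, or a 2-fold change, and more miRNA gives a higher value. The authors' number was 26.2, 28.5 and 30.5 cycles for DC-primed samples 1 to 3, compared with 26.4, 27.1 and 27.6 for the controls primed by B cells. DC-primed sample 3 stood apart: it had the latest Ct of the 6 samples in 235 of the 274 tested assays (85.8%), and 280 of 350 assays were below Ct 35, against 327 to 341 in the other 5 samples. The lateness was not shared by every assay.

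miR-181b gave the strongest signal of the family in every sample. With dendritic cells its level was 2.04, 2.85 and 3.99 in rounds 1, 2 and 3, and with B cells it was 1.60, 1.75 and 2.00. All 3 DC-primed values lay above all 3 control values, although DC-primed sample 1 exceeded the control of round 3 only narrowly. It ranked from 28 to 74 among 345 assays after priming by dendritic cells and from 59 to 79 after priming by B cells, where rank 1 is the highest level. The raw Ct values behind these levels were 24.14, 25.61 and 26.47 with dendritic cells and 24.75, 25.37 and 25.63 with B cells. On that raw scale the groups overlapped.

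miR-181a, the thymocyte regulator, varied most. With dendritic cells its level was 1.94, -0.38 and -3.05 in rounds 1, 2 and 3, and with B cells it was -2.74, -1.44 and -1.26. The highest and the lowest value of the 6 were thus both DC-primed, and the groups overlapped. Raw Ct values were 24.24, 28.84 and 33.51 with dendritic cells and lay between 28.56 and 29.09 with B cells. Among 345 assays its rank was 77 in DC-primed sample 1 and 242 in DC-primed sample 3, against 175 to 236 in the controls.

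miR-181c and miR-181d, the chromosome 8 pair, gave weaker signals than miR-181b in every sample. miR-181c was at -3.68, -1.16 and -2.02 with dendritic cells in rounds 1, 2 and 3, and at -3.95, -1.72 and -2.08 with B cells. Round 1 was the lowest for both kinds of priming. miR-181d was at -3.76, -1.21 and -2.31 with dendritic cells and at -2.22, -1.87 and -2.25 with B cells. The groups overlapped for both miRNAs, and the control values of miR-181d all lay inside the DC-primed range.

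**Figure D1:**
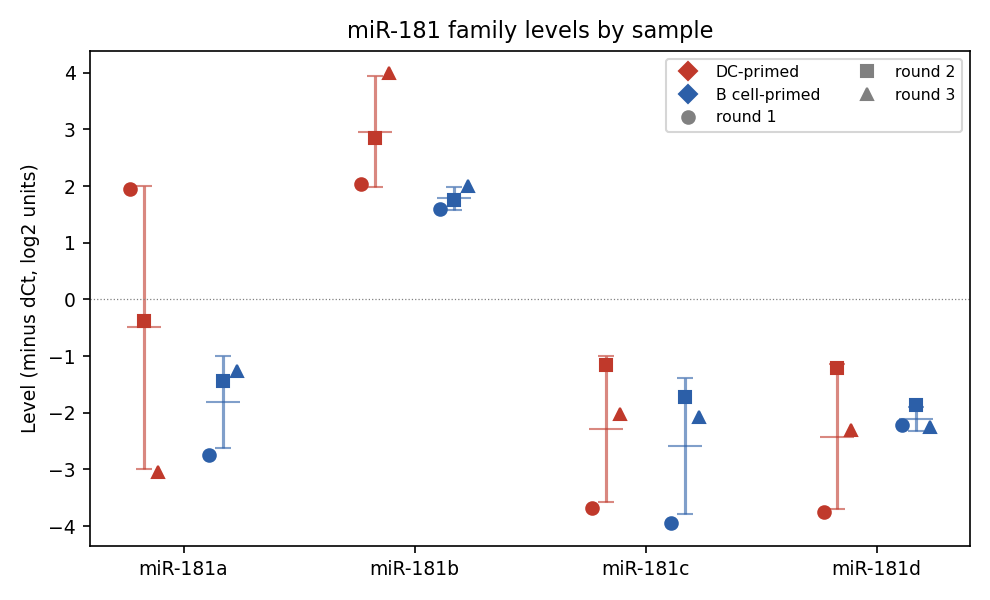
Level of each miR-181 assay (minus dCt, log2 units, vertical axis) in the 6 samples, with DC-primed samples in red and B cell-primed in blue, marker shapes for rounds, and horizontal bars with whiskers for the mean and SD of 3 samples. The DC-primed values of miR-181b lie above the B cell-primed ones, and miR-181a in DC-primed cells runs from -3.05 to 1.94.

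The order of the levels had miR-181b first in both groups and was undecided below it. After priming by dendritic cells the means were 2.96 ± 0.98 for miR-181b, -0.50 ± 2.50 for miR-181a, -2.29 ± 1.28 for miR-181c and -2.43 ± 1.28 for miR-181d (SD, n = 3). After priming by B cells they were 1.79 ± 0.20 for miR-181b, -1.81 ± 0.81 for miR-181a, -2.11 ± 0.21 for miR-181d and -2.58 ± 1.20 for miR-181c (SD, n = 3). In both groups every miR-181b value lay above every value of the other members, by as little as 0.10 cycles over miR-181a in DC-primed sample 1. miR-181a, miR-181c and miR-181d did not differ from their neighbours in this order beyond their spread. Assays can amplify with different efficiency, so the order is that of the signals.

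If 1 cycle is a 2-fold change in every assay, miR-181b made up 78.0% to 87.6% of the summed miR-181 signal in the controls. In DC-primed samples 1, 2 and 3 its share was 50.8%, 81.4% and 96.5%. miR-181a made up 4.33% to 8.58% in the controls and 47.4%, 8.68% and 0.734% in DC-primed samples 1, 2 and 3. The controls and DC-primed sample 2 thus had much the same make-up, while DC-primed samples 1 and 3 departed from it in opposite directions. miR-181c and miR-181d each made up 0.911% to 7.04% over the 6 samples. In DC-primed sample 3 they were above miR-181a, at 1.498% and 1.225%. In the control of round 1 miR-181d, at 6.20%, was above miR-181a.

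The comparison asked whether the cell that primes a CD8+ T cell goes with a different level of these miRNAs. None of the 4 members passed the test, and neither did any other assay: 0 of 274 (0.0%) had an adjusted p under 0.05 in limma, and 24 of 274 (8.76%) had an unadjusted p under 0.05, none of them a miR-181 assay. In the fit without DC-primed sample 3, limma called 2 of 274, neither from this family. With the round as a block it called 0 (0.0%), and 33 (12.0%) had an unadjusted p under 0.05, again none from this family.

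miR-181b was 1.17 ± 0.71 higher after priming by dendritic cells (SE, 95% confidence interval -0.46 to 2.80, limma adjusted p = 0.734). This corresponds to a ratio of 2.25, with an interval of 0.73 to 6.97. The difference was 0.44, 1.10 and 1.99 in rounds 1, 2 and 3, so on the authors' scale it had 1 sign in all 3 rounds. Among all tested assays, 15 (5.47%) had DC-primed values all above the control values and 22 (8.03%) all below, while 35 (12.8%) were higher after priming by dendritic cells in every round. In this family, on the same scale, miR-181b alone had groups that did not overlap, and miR-181b and miR-181c were higher in every round. By raw Ct, both were higher with dendritic cells in round 1 and lower in rounds 2 and 3. The miR-181b difference was 0.66 without DC-primed sample 3, and without normalization it was -0.16. That setting moved all assays together, so the distance of miR-181b to the median of all tested assays, 1.10, could not change. It therefore does not show whether the difference holds without normalization.

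miR-181a was 1.31 ± 1.19 higher by the mean (SE, 95% confidence interval -1.41 to 4.03, limma adjusted p = 0.961), a ratio of 2.48 with an interval of 0.38 to 16.4. The rounds disagreed, with 4.68, 1.06 and -1.79 in rounds 1, 2 and 3. Single samples decided this value. It was 0.09 without DC-primed sample 1, 0.85 without the control of round 1 and -0.37 without both samples of round 1. Without DC-primed sample 3 it was 2.59 (limma adjusted p = 0.235, unadjusted p = 0.0163). In that fit 42 of 274 assays had an unadjusted p under 0.05. Without normalization the miR-181a difference was -0.02. Its distance to the median of all tested assays, 1.24, is the same on both scales by construction.

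miR-181c differed by 0.29 ± 0.91 (SE, 95% confidence interval -1.79 to 2.37, limma adjusted p = 0.986), with 0.27, 0.56 and 0.06 in the 3 rounds. miR-181d was the only member whose mean was lower with dendritic cells on the authors' scale, at -0.32 ± 0.79 (SE, 95% confidence interval -2.10 to 1.47, limma adjusted p = 0.986), with -1.54, 0.66 and -0.06; scaled to the small RNAs RNY3 and snoRD47 its sign turned, to 0.91. Its distance to the median of all tested assays, -0.39, is the same on both scales by construction. Leaving out a single sample could turn either sign. miR-181c was at -0.39 without the control of round 1 and -0.27 without DC-primed sample 2. miR-181d was at 0.35 without DC-primed sample 1. Leaving out both samples of round 1, 2 or 3 gave 0.31, 0.16 and 0.41 for miR-181c, which kept its sign. For miR-181d the same omissions gave 0.30, -0.80 and -0.44. The intervals of all 4 members include both no difference and a difference of more than 2-fold. A change of that size is thus not excluded, and equal levels are not shown.

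As a group, 3 of 4 members had a higher mean after priming by dendritic cells, against 146 of 274 tested assays (53.3%). That count depends on the scaling: it was 0 of 4 without normalization and 4 of 4 when scaled to RNY3 and snoRD47, settings that moved the median of all tested assays to -1.26 and 1.30. The median difference of the 4 was 0.73, against 0.07 over all tested assays. All 4 members scattered more among the DC-primed samples than among the controls, and so did 218 of 274 assays (79.6%). miR-181a stood high in this, with a DC-primed SD above that of 92.0% of tested assays. miR-181b and miR-181d were among the steadiest in the controls, with an SD above that of only 8.03% and 8.39% of assays, whereas miR-181a and miR-181c were above 68.6% and 86.1%.

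In the authors' deposited table the fold change of dendritic over B cell priming is 2.48 for miR-181a, 2.25 for miR-181b, 1.23 for miR-181c and 0.803 for miR-181d. The p-values in the authors' deposited table, from a paired test over the rounds and not adjusted for the number of assays, are 0.556 for miR-181a, 0.120 for miR-181b, 0.180 for miR-181c and 0.672 for miR-181d. None is under 0.05.

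**Figure D2:**
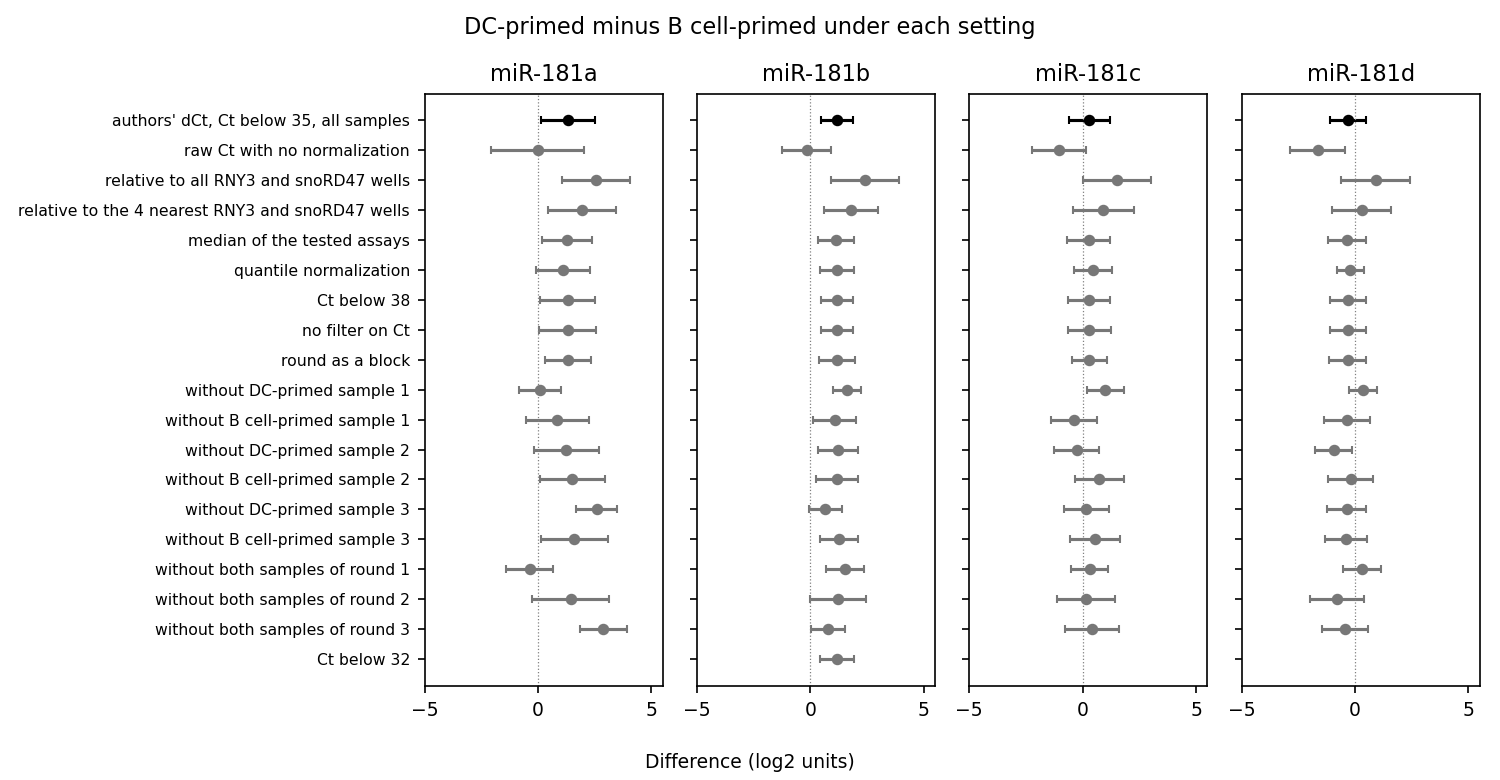
DC-primed minus B cell-primed difference of each miR-181 assay (log2 units, horizontal axis) with limma's standard error as whiskers, for the values as reported (black) and each alternative setting (grey); no point is drawn where a Ct limit of 32 removed the assay. miR-181a moves from -0.37 to 2.87 over the alternatives and miR-181b from -0.16 to 2.40.

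Differences between members of the family within 1 sample do not depend on the number used to normalize that sample, and they were taken from raw Ct, turned so that a positive value means more of the first miRNA. miR-181a minus miR-181b was -4.34, -3.19 and -3.26 cycles with B cells in rounds 1, 2 and 3. With dendritic cells it was -0.10, -3.23 and -7.04 cycles. The difference thus stayed within -4.34 to -3.19 in 4 of the 6 samples, and DC-primed samples 1 and 3 fell on either side, a span of 6.94 cycles for miRNAs made from shared primary transcripts. The means were close, at -3.46 ± 3.48 with dendritic cells and -3.60 ± 0.65 with B cells (SD, n = 3; two-sided exact permutation p = 0.9).

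The chromosome 8 pair kept closest together. miR-181c minus miR-181d was 0.08, 0.05 and 0.29 cycles with dendritic cells and 0.15 and 0.17 with B cells in rounds 2 and 3. The control of round 1 was the exception, at -1.73 cycles. In sequence this pair is less alike than miR-181b and miR-181d, which over their first 23 bases differ by C12U alone. miR-181b and miR-181d stood 3.62 to 6.30 cycles apart, and whether their assays detect each other's target was not tested.

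miR-181b minus miR-181d was 5.80, 4.06 and 6.30 cycles with dendritic cells in rounds 1, 2 and 3 and 3.82, 3.62 and 4.25 with B cells. The gap was wider with dendritic cells in all 3 rounds, by 1.98, 0.44 and 2.05, although DC-primed sample 2 lay inside the control range. The mean gap was 5.39 ± 1.18 with dendritic cells and 3.90 ± 0.32 with B cells (SD, n = 3), a difference of 1.49 (two-sided exact permutation p = 0.2). Over the 6 pairs of members compared, the exact permutation p ran from 0.2 to 0.9 and was 0.9 for each after Benjamini-Hochberg adjustment, where 3 samples against 3 allow no p below 0.1. These p-values could not pass a threshold of 0.05 whatever the data, so they do not settle whether a pair differs. miR-181b minus miR-181c also had 1 sign in all 3 rounds, at 0.17, 0.54 and 1.93, and the groups overlapped there too.

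**Figure D3:**
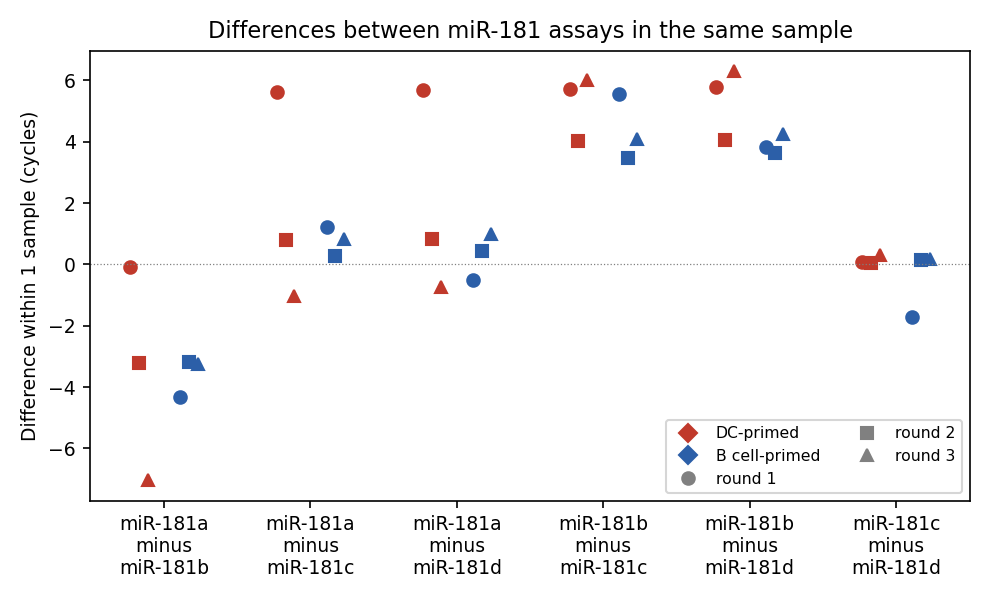
Difference between 2 miR-181 assays in the same sample (cycles, vertical axis; above 0 means more signal for the first named) for the 6 pairs of members, with DC-primed samples in red, B cell-primed in blue and marker shapes for rounds. miR-181c minus miR-181d lies within 0.29 cycles of 0 in 5 samples, while miR-181a minus miR-181b spreads from -7.04 to -0.10.

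The assays closest to miR-181a in pattern over the 6 samples were miR-222, known to target cell cycle inhibitors, at a Pearson correlation of 0.94, miR-100 at 0.92 and miR-30d at 0.91. These correlations only describe the 6 points, which share RNA samples and per-sample numbers with every other assay. miR-222 was at 4.55, 1.43 and -3.13 with dendritic cells in rounds 1, 2 and 3 and at -1.79, -2.17 and -2.01 with B cells. Like miR-181a, it was highest in DC-primed sample 1 and lowest in DC-primed sample 3. Of the 270 other tested assays, 7 correlated above 0.9 with miR-181a, 14 with miR-181b, 9 with miR-181c and 3 with miR-181d.

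The other members were followed by different assays. For miR-181b they were the human-named miR-504 at 0.97, miR-742 at 0.96 and let-7g* at 0.96. For miR-181c they were miR-494 and miR-297a at 0.95 each and miR-302a at 0.94, and for miR-181d miR-199a-3p and the human-named miR-301b at 0.92 each and miR-297a at 0.90. Within the family, over the same 6 samples, miR-181c and miR-181d correlated at 0.73, and miR-181a correlated at -0.28 with miR-181b.

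Markers of myeloid and dendritic cells were together highest in DC-primed sample 1, and above the controls in the other DC-primed samples too. The summed level of the 7 such miRNAs on the panel was 7.41, 4.70 and 2.99 with dendritic cells in rounds 1, 2 and 3 and 1.55 to 2.22 with B cells. In DC-primed sample 3 the largest part of the sum was miR-34a, at 2.32. There miR-34a, miR-147 (-0.11) and miR-99b (-2.66) lay above all their control values. In the same sample miR-22 and miR-125a-5p lay within their control ranges, and miR-223 and miR-146b (-8.31) lay below theirs. Of these 7, 5 were tested, all 5 had a higher mean with dendritic cells and 0 passed, with a median difference of 2.53. miR-223, the miRNA most typical of myeloid cells, was at 5.36, 1.23 and -6.53 with dendritic cells and at -5.79, -5.32 and -5.04 with B cells; its Ct of 36.99 in DC-primed sample 3 was past the limit of 35. Like miR-181a, miR-223 was highest in DC-primed sample 1 and lowest in DC-primed sample 3. Of the 7 markers, those not tested included, 6 were highest in DC-primed sample 1. Among the 274 tested assays, all within the Ct limit, 57 were, so these counts rest on unlike filters. Only miR-223 and miR-146b, chosen after their values were seen, were also lowest in DC-primed sample 3. The Ct of miR-146b there, 38.77, was past the limit too, so neither miRNA was among the tested assays. Being highest in DC-primed sample 1 and lowest in DC-primed sample 3 is not particular to myeloid miRNAs, since 36 of the 274 tested assays (13.1%) showed both. The part of myeloid RNA in the miR-181a values was not tested. In bulk RNA, more cells that hold a miRNA and more of it per cell cannot be told apart.

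**Figure D4:**
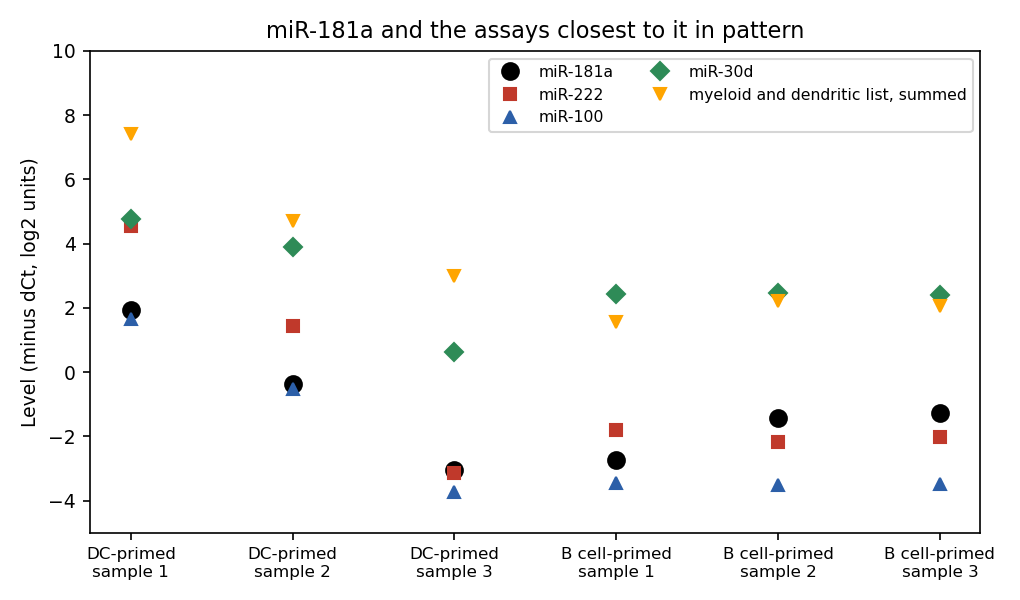
Level (minus dCt, log2 units, vertical axis) of miR-181a, the 3 assays with the most similar pattern and the log2 of the summed signal of the 7 myeloid and dendritic miRNAs, by sample. All 5 are highest in DC-primed sample 1, and the 4 single assays are lowest in DC-primed sample 3.

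miR-181a is among the miRNAs that decline when naive T cells are activated, so other such miRNAs are given for comparison. Of 18 on the panel, 15 were tested, 9 had a higher and 6 a lower mean with dendritic cells and 0 passed, with a median difference of 0.11 against 0.07 over all tested assays. They ranged from miR-100 at 2.61 ± 1.23 (SE) to miR-29c at -1.07 ± 1.49. Of 17 miRNAs raised by activation or acting on T cell receptor signalling, all 17 were tested, 9 had a higher and 8 a lower mean and 0 passed, with a median of 0.29. Those ran from miR-21 at 3.19 ± 1.26 to miR-18a, of the miR-17/miR-92a cluster, at -3.62 ± 1.22. The differences of the 4 miR-181 members lay inside the range of both lists.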

How the data were processed

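Per the labels' protocols, DNase-treated total RNA was given poly(A) tails, reverse transcribed from oligo-dT primers and amplified with a forward primer per miRNA (SYBR Green). Per the file headers, the authors deposited raw Ct values and dCt values, a log2 scale made by subtracting 1 number per sample described as the geometric mean of its Ct values, a p-value from a two-tailed paired test, and the fold, a ratio of the test group over the control. Names and headers of the 2 sample tables disagree; the values match the headers. No source used here names the PCR instrument or how Ct was called.

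Here dCt was turned in sign, and assays with Ct below 35 in all 6 samples (274 of 345) were tested with limma 3.58.1 in R 4.3.3 (lmFit, eBayes, no block, two-sided, Benjamini-Hochberg over all tested assays, threshold 0.05). Pairs of members were compared by exact permutation in scipy 1.17.1. The limma step was tested on simulated data with the same spread for every assay and both groups. In the real data 79.6% of tested assays scattered more among DC-primed samples, so that test does not cover such unequal spreads. Titles give the round numbers; same-round samples deviated from their group means with correlations of 0.16, 0.14 and 0.46 across assays, so rounds were taken as pairs in the block alternative. The members and lists were chosen with earlier results of these data known. Named assays were the 4 members, the 3 assays closest to each by Pearson correlation, and the largest and smallest of each list. miR-150 and the single miRNAs of the myeloid list, miR-146b and miR-223 among them, were added after their values were seen. Lists of B cell (miR-150, miR-148a), erythroid (miR-451, miR-144) and general haematopoietic markers held 2, 1 and 1 tested assays with median differences of 0.62, 1.31 and 0.59, and 0 passed. miR-511, on the myeloid list, was not analysed here, nor was the hairpin of Mir181c. Sequences of all 4 members were matched by name in RefSeq. Plots used matplotlib 3.10.9 (Python 3.11.15).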

Additional observations from a re-analysis of the deposited data

How the results depend on the processing

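No member of the miR-181 family passed the limma threshold under any of the 17 alternatives run (18 for miR-181b), but directions did depend on the settings. Without normalization the differences were -0.02 for miR-181a, -0.16 for miR-181b and -1.04 for miR-181c. Over all 274 assays the median difference was then -1.26, against 0.07 on the authors' scale, 1.30 relative to all 16 RNY3 and snoRD47 wells and 0.69 relative to the 4 of these wells listed nearest the members, an alternative chosen after seeing the data. miR-181d, at 0.91 and 0.30 in the last 2 settings, turned its sign but was below those medians. Without both samples of round 1, miR-181a was at -0.37 and miR-181d at 0.30. Without DC-primed sample 1, the unadjusted limma p of miR-181b was 0.0331, where 58 of 274 assays were under 0.05. Without both samples of round 3, that of miR-181a was 0.0324, where 30 of 274 were. Leaving out each sample in turn gave 0.09 to 2.59 for miR-181a, 0.66 to 1.63 for miR-181b, -0.39 to 0.99 for miR-181c and -0.93 to 0.35 for miR-181d, and 0 to 2 called assays in all. With the round as a block, the adjusted p was 0.723 for miR-181a, 0.646 for miR-181b and 0.988 for miR-181c and miR-181d; the block changed no call. For pairs, leaving out each sample gave -1.54 to 1.93 for miR-181a minus miR-181b, -0.90 to 2.43 for miR-181a minus miR-181c, -0.25 to 2.97 for miR-181a minus miR-181d, 0.43 to 1.50 for miR-181b minus miR-181c, 1.03 to 2.15 for miR-181b minus miR-181d and -0.02 to 0.93 for miR-181c minus miR-181d. A Ct limit of 32 left only miR-181b of the family. The settings without normalization and relative to reference wells shift all assays of a sample alike, so each member kept its distance to the median of all tested assays there; the cause of the other reversals was not tested. miR-181a, miR-181c and miR-181d had a Ct past 32 in DC-primed sample 3; precision by Ct was not measured.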
